A study of Mus musculus with 2 samples.

Results

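Krt8-positive cells with intermediate Epcam were the cell barcodes that carried 3 or more Krt8 counts and 2 to 4 Epcam counts, had 80 or more counts over all genes of the panel, and held no count of Ptprc, Cd68, Mpeg1, Pecam1 or Csf3r, which mark leukocytes, macrophages, blood vessels and neutrophils. There were 7036 such cells among 516855 barcodes, 2829 of 261111 in a section of EKP tumour and 4207 of 255744 in a section of RKP tumour. They were set beside Krt8-positive cells under the same limits with Epcam 5 or more (the high class, 22074 cells in EKP and 31597 in RKP) and with Epcam 0 or 1 (the low class, 6040 and 7742). Krt8, Epcam and the 5 excluded genes chose the cells, so the members were chosen by measured values, and the values of these genes describe the rule and support nothing.

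Both sections came from subcutaneous allografts labelled diffuse gastric cancer. C57BL/6 mice 5 weeks old received cultured EKP or RKP cells in Matrigel, a basement membrane gel, at both flanks. The tissue was fixed, embedded in 1 paraffin block and read on 1 slide by Xenium In Situ, which counts RNA molecules of chosen genes in segmented cells, here 479 genes. The series title refers to RHOA, a GTPase that controls the actin cytoskeleton, in a mutated form, but the labels neither spell out EKP and RKP nor say which line carries it. Each group was 1 section, so differences between sections have no test and every interval covers counting error only.

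Epithelial cells adhere through E-cadherin, encoded by Cdh1, and seal against each other with claudins, while Epcam is a surface glycoprotein and Krt8 and Krt19 are keratins of simple epithelia. In epithelial to mesenchymal transition, factors such as Snai1, Snai2 and Twist1 repress junction genes, and S100a4, a calcium-binding protein, is widely used as a marker of the mesenchymal side. A cell with less Epcam can therefore be described by which of the other epithelial and mesenchymal genes stand between the levels of cells with more and with less of it. In a section, a cell boundary can also take in molecules of the cells around it, and the matrix genes Col1a1 and Lum and the contractile genes Acta2 and Tagln mark fibroblasts and smooth muscle.

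**Figure D1:**
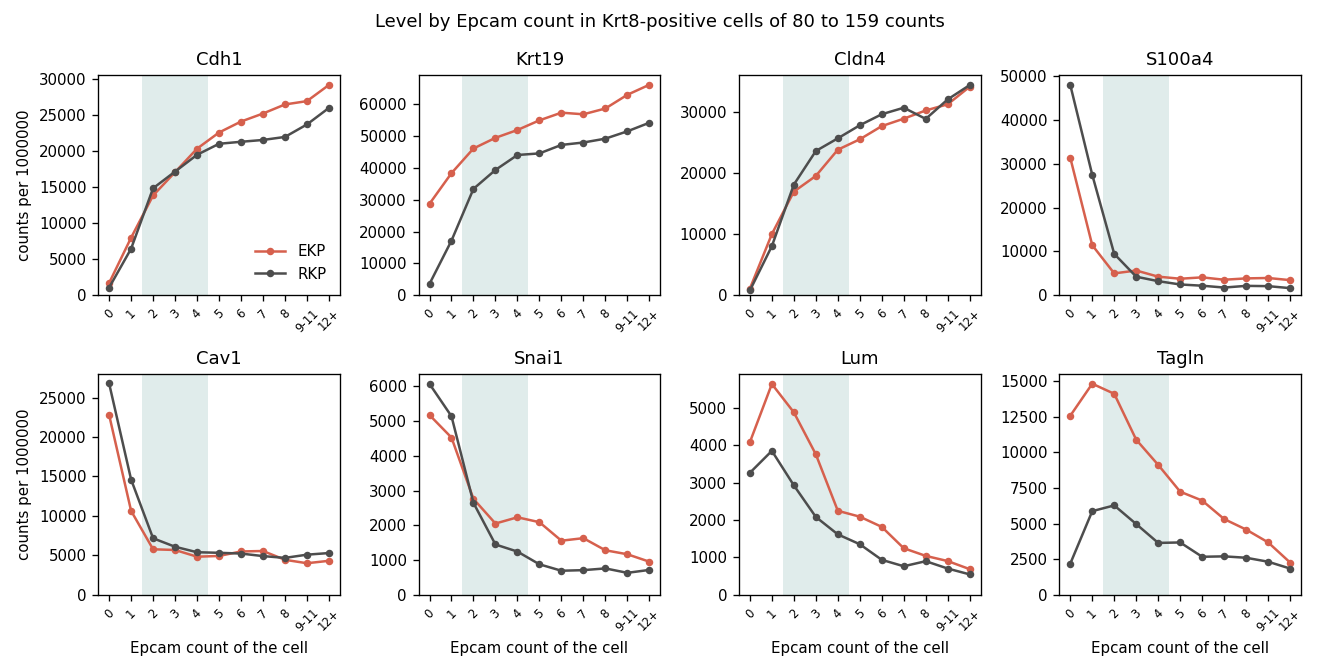
Levels (counts per 1000000 counts of the genes outside the rule) of 8 genes in Krt8-positive cells with at least 80 and under 160 counts, by the Epcam count of the cell, in EKP (red) and RKP (grey); the shaded band is Epcam 2 to 4. Cdh1, Krt19 and Cldn4 climb from left to right through the band, whereas S100a4 and Cav1 drop between Epcam 0 and 2.

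The intermediate cells were shallow. Their median total was 151 counts in EKP and 132 in RKP, against 253 and 225 in the high class and 197 and 168 in the low class. They made up 9.14% (95% Clopper-Pearson interval 8.82 to 9.47%) of the Krt8-positive cells left by the 5 genes in EKP and 9.66% (9.39 to 9.94%) in RKP. That share was 20.3% of EKP cells with fewer than 160 counts, 6.87% of those with at least 160 and fewer than 320, and 2.77% of those with 320 or more. In RKP the same windows gave 21.2%, 5.41% and 1.73%. When every cell was first thinned to 80 counts, 39.5% of EKP and 41.4% of RKP Krt8-positive cells fell into Epcam 2 to 4, and 62.1% and 58.1% of those had an Epcam count of 5 or more at full depth. An Epcam count of 2 to 4 was thus a range of counts that moved with depth. Unless said otherwise, levels of the classes below came from classes matched in depth, 2803 cells of each class in EKP and 4118 in RKP. The matching left out 26 and 89 intermediate cells. Shares removed by the 5 genes, levels by single Epcam count, levels set between the sections and values by file order used unmatched cells.

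The 5 excluded genes removed a larger share of Epcam 2 to 4 cells than of the high class. Of Krt8-positive cells with Epcam 2 to 4, 65.1% were removed in EKP and 70.7% in RKP, compared with 45% and 53.5% of those with Epcam 5 or more and 61.7% and 71.3% of those with Epcam 0 or 1. In the matched cells, Krt8 stood at 6.59 counts per cell in EKP, beside 6.51 in the low and 9.80 in the high class, and at 5.96 in RKP beside 5.36 and 7.35. The cells at the limits of the rule formed a graded series: among EKP cells with fewer than 160 counts, Cdh1 stood at 7983 per 1000000 counts at Epcam 1, 13847 at Epcam 2, 20351 at Epcam 4 and 22594 at Epcam 5. The same steps in RKP were 6454, 14848, 19499 and 21029. Across the limits of the rule, the step from Epcam 1 to 2 was wider than that from 4 to 5 in both sections.

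Cdh1 and the other genes of the epithelial list outside the rule were intermediate over all matched cells. Levels are counts per 1000000 counts of the 472 genes that the rule did not use, summed over matched cells, and a gene was placed between the classes when its level lay between theirs and both ratio intervals excluded 1. Cdh1 stood at 2225, 11438 and 25459 in the low, intermediate and high classes of EKP and at 1535, 13060.4 and 22020.2 in RKP. In EKP that was 0.449 (0.435 to 0.464) times the high class and 5.14 (4.81 to 5.50) times the low class, and in RKP 0.593 (0.576 to 0.610) and 8.51 (7.95 to 9.12) times. Krt19 in EKP was also high in cells with little Epcam, at 22696, 34354 and 54471, so its span there was narrow, whereas in RKP it stood at 4887, 30951 and 47316. Sox9, a transcription factor of progenitor cells, was spaced more closely, at 2085, 3053 and 4577 in EKP and 6234, 7938 and 9959 in RKP.

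Among the claudins, the strands of the tight junction, Cldn4 stood at 1713, 12828 and 29481 in the low, intermediate and high classes of EKP and at 1412, 17174 and 31334 in RKP. Cldn3 stood at 104, 729.8 and 1646 in EKP and at 184, 2172 and 3526 in RKP. Cldn7 was placed between as well, at 1146 in the intermediate cells of EKP and 1846 in those of RKP. Cldn2, the claudin that forms cation-permeable pores, was placed between in both sections at very different levels, 149, 645 and 1239 in EKP and 785, 9945 and 15294 in RKP. These 4 claudins thus lay between the classes in both sections over all matched cells. A further one on the panel, Cldn11, which was not on the list, had 21 counts in the intermediate cells of EKP and 10 in those of RKP and could not be placed, and Dsc3, a desmosomal cadherin, had 9 counts in the intermediate cells of EKP and 4 in those of RKP and could not be placed.

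Of the apical membrane and mucin genes, 8 of 15 in EKP and 10 of 14 in RKP were placed between the classes, 1 was above both and 2 below both in EKP, and 4 in each section could not be placed. Prom1, a protein of membrane protrusions, stood at 299.7, 3413 and 8294 in the low, intermediate and high classes of EKP and at 1478, 18686 and 31863 in RKP. Muc1 and Muc4, membrane-bound mucins, stood in the intermediate cells at 0.481 and 0.392 times the high class in EKP and at 0.694 and 0.591 times in RKP. Gpa33, an intestinal surface antigen, was at 0.430 times in EKP and 0.621 times in RKP. Gabrp, a GABA receptor subunit found in epithelia, came nearer to the high class in RKP, at 0.731 (0.707 to 0.756) times, than Prom1 did, at 0.586 (0.573 to 0.601) times. Aqp5, a water channel, was below both classes over all matched cells of EKP, at 3613, 1925 and 2579.9. It ran the other way in RKP, at 8154, 3503 and 2618.

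Over the epithelial, junction and apical lists, 23 genes outside the rule were measured. In EKP all 23 were above the negative control probes, and 15 were placed between the classes, 1 above both (Muc13), 2 below both (Aqp5 and Upk1a) and 5 could not be placed. Of all 462 genes kept in EKP, 98 were placed between, which is 21.2%. In RKP 22 of the 23 were kept (not Upk3a), 17 were placed between and 5 could not be placed, against 152 of 417 kept genes placed between, which is 36.5%. The median log2 ratio of the listed genes to the high class was -0.92 in EKP and -0.57 in RKP, where it was 0.22 and 0.30 over all kept genes, and to the low class it was 1.69 and 3.28 against -0.07 and -0.22.

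The position of the intermediate cells between the classes differed between the sections in value. It was computed as the step from the low class over the whole distance from the low to the high class, so that 0 is the low-class level and 1 the high-class level, for genes at least 2-fold apart between those classes with an interval that excluded 1 (180 of 462 genes or 39.0% in EKP, 213 of 417 or 51.1% in RKP). The listed epithelial genes that were higher in the high class had a median position of 0.4003 in EKP and 0.614 in RKP. Cdh1 lay at 0.397 and 0.563, Cldn4 at 0.4003 and 0.527 and Prom1 at 0.389 and 0.566. With 1 section each, this difference between EKP and RKP was not tested. It also moved with depth: the median was 0.704, 0.347 and 0.114 in EKP cells of the same windows of depth (under 160, under 320 and 320 or more counts), and 0.831, 0.468 and 0.0937 in RKP.

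Several of these genes carry upstream of their start the letters CAGGTG or, on the other strand, CACCTG, the E-box form known to be bound by SNAI1 and SNAI2. Sequences were available from RefSeq (build GRCm38.p6) for 345 of the 479 panel genes. Cdh1, Krt19 and Snai2 were not among these and could not be searched. In the 250 bases before any listed start, these letters occurred in 8 of 20 genes of the epithelial, junction and apical lists (40%), 2 of which are the rule's Krt8 and Epcam, so that 6 of 18 remained without them (33.3%), in 2 of 6 of the mesenchymal list (33.3%), in 86 of the 345 panel genes (24.9%) and in 5252 of 27025 genes of the whole RefSeq table (19.4%). The rule's epithelial genes and the claudin with the most counts are shown to let the places be seen, each 5′ to 3′ on the strand of its gene, with the matches in capitals. Epcam (plus strand, chr17:87635729-87635978) holds matches that begin 187 and 19 bases before the start, Krt8 (minus strand, chr15:102004343-102004592) 1 match at 111 bases, and Cldn4 (minus strand, chr5:134946935-134947184) 1 match at 14 bases. Of the other claudins of the list, Cldn7 held matches at 97 and 57 bases before a listed start, and Cldn2 and Cldn3 held none. A match is a description of the letters and not of binding.
Epcam: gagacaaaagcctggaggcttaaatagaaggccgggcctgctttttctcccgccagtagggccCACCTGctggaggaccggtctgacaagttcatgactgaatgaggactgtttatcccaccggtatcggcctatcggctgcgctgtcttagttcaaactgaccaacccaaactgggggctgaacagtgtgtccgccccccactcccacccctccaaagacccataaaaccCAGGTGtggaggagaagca
Krt8: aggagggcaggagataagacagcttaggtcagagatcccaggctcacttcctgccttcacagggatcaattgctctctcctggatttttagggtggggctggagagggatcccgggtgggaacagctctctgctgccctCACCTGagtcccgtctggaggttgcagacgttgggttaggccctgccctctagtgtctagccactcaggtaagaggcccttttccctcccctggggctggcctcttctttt
Cldn4: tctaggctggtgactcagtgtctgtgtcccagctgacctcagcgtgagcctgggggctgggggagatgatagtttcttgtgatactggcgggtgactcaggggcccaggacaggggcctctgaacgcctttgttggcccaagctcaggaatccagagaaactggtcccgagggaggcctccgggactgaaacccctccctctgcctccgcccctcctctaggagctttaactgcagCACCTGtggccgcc

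The genes that mark the low class fell into unlike sets in the intermediate cells. S100a4 and Cav1, the coat protein of caveolae, had covered most of the distance from the low-class to the high-class level. S100a4 stood at 28549.7, 6315 and 4186 in the low, intermediate and high classes of EKP and at 46413, 9069 and 2068 in RKP. The intermediate cells thus had 0.221 (0.212 to 0.230) times the low class in EKP and 0.195 (0.190 to 0.201) times in RKP, with positions of 0.913 and 0.842. Against the high class, S100a4 was still at 4.38 times in RKP over all matched cells. That ratio rose with depth, at 2.51, 5.196 and 8.32 times from the shallowest to the deepest of the same windows of depth. In EKP it was at 1.43, 1.495 and 1.83 times. Against the low class, S100a4 in these windows was at 0.181, 0.227 and 0.289 times in EKP and 0.116, 0.251 and 0.352 times in RKP. No interval is given for the ratios by window. Cav1 stood at 19369.7, 5801 and 4789.9 in EKP and 24894, 7557 and 5401 in RKP, with positions of 0.931 and 0.889. Bmp2, a secreted signal of the BMP family, behaved alike, at 0.222 and 0.252 times the low class. In RKP, so did Sox2, a stem cell factor, at 0.242 times the low class, Ptn, a secreted growth factor, at 0.212 times, and Hey1, a target of Notch signalling, at 0.183 times. Ptn and Hey1 nevertheless remained far above the high class there, at 7.85 and 12.5 times. In EKP Sox2 was below both classes over all matched cells, at 16572, 6997 and 8551.

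Snai1 and Snai2 lay nearer to the low class than S100a4 did. Snai1 stood at 6005, 4493 and 1588 in the low, intermediate and high classes of EKP and at 6118, 3137 and 774 in RKP, which put the intermediate cells at 2.83 (2.59 to 3.09) and 4.05 (3.65 to 4.51) times the high class. Snai2 had 315 counts in the intermediate cells of EKP and 491 in those of RKP, and stood at 859, 682 and 99.4 and at 1430.4, 835 and 152. Their positions were 0.342 and 0.233 in EKP and 0.558 and 0.466 in RKP. Both depended on depth against the low class. From the shallowest to the deepest of the same windows, Snai1 was at 0.473, 0.738 and 0.998 times in EKP and 0.284, 0.693 and 1.39 times in RKP. Snai2 was at 0.552, 0.818 and 0.918 times in EKP and 0.231, 0.798 and 1.77 times in RKP, so in RKP both were below the low class in the 2 shallower windows and above it in the deepest. That deepest window had only 204 matched cells per class in EKP and 123 in RKP, and no interval is given for its ratios.

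Twist1 was above both classes, and so were several genes of fibroblasts and most of those of contractile cells. Twist1 stood at 525, 732 and 143 in the low, intermediate and high classes of EKP and at 345, 902 and 220.3 in RKP. Col1a1, the collagen of fibrous tissue, stood at 43826, 48730.5 and 19337 in EKP and at 20256, 30779 and 13517 in RKP. Lum, a matrix proteoglycan, stood at 5456, 8023 and 1459 and at 3903, 4659.7 and 1078. Tagln, an actin-binding protein of smooth muscle, stood at 15452, 21012 and 5768 and at 3339, 8605 and 3089. Mmp9, a gelatinase made by neutrophils and other cells, stood at 8999, 15611 and 3558 and at 4376, 8006 and 2453. In each of these 5 genes the intermediate cells were the highest of the 3 classes in both sections. Of the mesenchymal list, 9 genes were measured. In EKP 4 were placed between, 3 above both (Twist1, Tagln, Acta2), 1 below both (Cd44) and 1 (Mmp2) could not be placed, and in RKP 4 were between, 4 above both, with Mmp2, and 1 below. Of the 6 fibroblast genes, 2 (Lum and Col1a1) were above both in EKP and 4 could not be placed, and in RKP 4 were above both and 2 between. Pi16, a marker of adventitial fibroblasts, was at 0.382 times the low class in EKP and Dpt, a matrix protein, at 0.280 times in RKP, on 24 and 42 counts. Of the 8 contractile and pericyte genes, 6 were above both in EKP and 7 in RKP. Among all kept genes, 10.2% were above both in EKP and 11.3% in RKP.

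**Figure D2:**
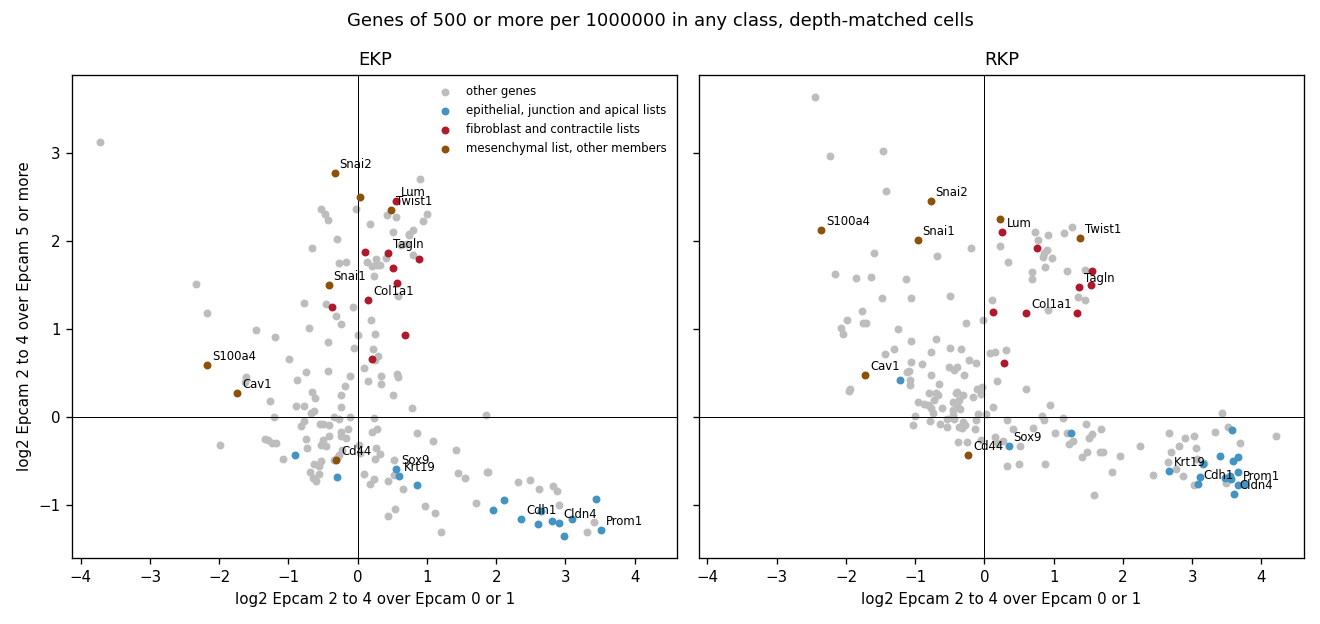
Log2 ratio of the intermediate cells to the low class (x axis) and to the high class (y axis) in depth-matched cells of EKP and RKP, 1 point per gene with a level of 500 or more in any class. Epithelial genes lie at the lower right (between the classes), S100a4 and Cav1 at the upper left, and most fibroblast and contractile genes at the upper right (above both).

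The marker lists of other cell types moved with these results. The summed level of the 6 fibroblast genes measured was 51888 in the low, 59441 in the intermediate and 21541 in the high class of EKP, and 25095, 36612 and 14914 in RKP, and without Col1a1 it was 8062, 10710.6 and 2203 in EKP and 4839, 5834 and 1397 in RKP. The 8 contractile and pericyte genes summed to 50876, 62193 and 30041 in EKP and to 27252, 39714 and 22031 in RKP. The 4 neutrophil genes kept summed to 10328, 17528 and 6579 in EKP and to 5200, 11118 and 6556 in RKP, with Csf3r at 0 by the rule. Without Mmp9 the other neutrophil genes, chiefly Ly6g, summed to 1328, 1916 and 3021 in EKP and to 825, 3112 and 4103 in RKP, and so were lower in the intermediate than in the high class. The 8 macrophage genes summed to 7346, 7776 and 5065 in EKP and to 15547, 12809 and 8485 in RKP, with Cd68 and Mpeg1 at 0 by the rule. The 8 endothelial genes summed to 3322, 2949 and 1144 in EKP and to 3808, 2668 and 1005 in RKP. The intermediate cells thus held more of the fibroblast, contractile, macrophage and endothelial lists than the high class in both sections, and more of the neutrophil list through Mmp9 alone. Doublets were not called. Their part in the levels of Twist1 and the other genes above both classes was not tested. The restriction that follows limits counts of other cells' markers and does not identify doublets.

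In cells with few such counts, Tagln and Acta2 were not above both classes. Restricting all 3 classes to cells with at most 3 counts over the macrophage, neutrophil, T cell, mast cell, endothelial and fibroblast lists left 605 matched cells per class in EKP and 1567 in RKP. The limit also left shallower cells, with a median of 109 counts in the intermediate cells of EKP and 118 in those of RKP, against 152 and 134 over all matched cells. There Tagln stood in the intermediate cells at 1.12 (0.903 to 1.40) times the high class in EKP and 0.957 (0.787 to 1.16) times in RKP, and Acta2 at 1.01 (0.940 to 1.09) and 0.971 (0.917 to 1.03) times. Against the low class, Tagln was at 0.656 (0.543 to 0.791) times in EKP and still at 1.52 (1.23 to 1.89) times in RKP. In the shallowest window of depth, without this limit, Acta2 was already at 0.968 and 0.929 times the low class. Tagln there was at 0.901 times it in EKP and 1.66 times in RKP, and in RKP at 1.92 times the high class. The parts of depth and of the marker counts were thus not told apart. Neither Tagln nor Acta2 counts towards the limit. The fibroblast genes and Mmp9 do, so the limit itself holds them low in all 3 classes, and their ratios there say nothing of their place. Twist1 had 4 counts in the intermediate cells of EKP and 10 in those of RKP and could not be placed.

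Cdh1 remained between the classes under that restriction and was nearer to the high class, at 0.749 (0.698 to 0.803) times it in EKP and 0.826 (0.790 to 0.864) times in RKP. Krt19 was at 0.862 (0.824 to 0.903) and 0.812 (0.787 to 0.837) times and Cldn4 at 0.786 (0.735 to 0.840) and 0.752 (0.723 to 0.783) times. For Prom1 the interval included 1 in EKP, at 0.923 (0.810 to 1.05) times, and did not in RKP, at 0.827 (0.798 to 0.858) times. The median position of the listed epithelial genes was 0.771 in EKP and 0.925 in RKP. Depth changed together with the marker counts here, and the shallowest window alone gave 0.704 and 0.831, so the part of each cannot be told apart. S100a4 kept its place above the high class, at 1.62 (1.36 to 1.93) times in EKP and 3.17 (2.80 to 3.60) times in RKP, and stood at 0.170 and 0.113 times the low class. Snai1 moved toward the high class, to positions of 0.789 and 0.851, and remained above it, at 1.42 (1.04 to 1.94) and 2.48 (1.95 to 3.17) times. Snai2 had 5 counts there in EKP and could not be placed, and in RKP was at 3.92 (1.93 to 8.78) times the high class on 41 counts. Sox2 and Aqp5 in EKP were no longer below both classes. Sox2 was placed between, at 1.24 (1.11 to 1.39) times the high class. Aqp5 was at 1.55 (1.23 to 1.97) times it and could not be placed.

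**Figure D3:**
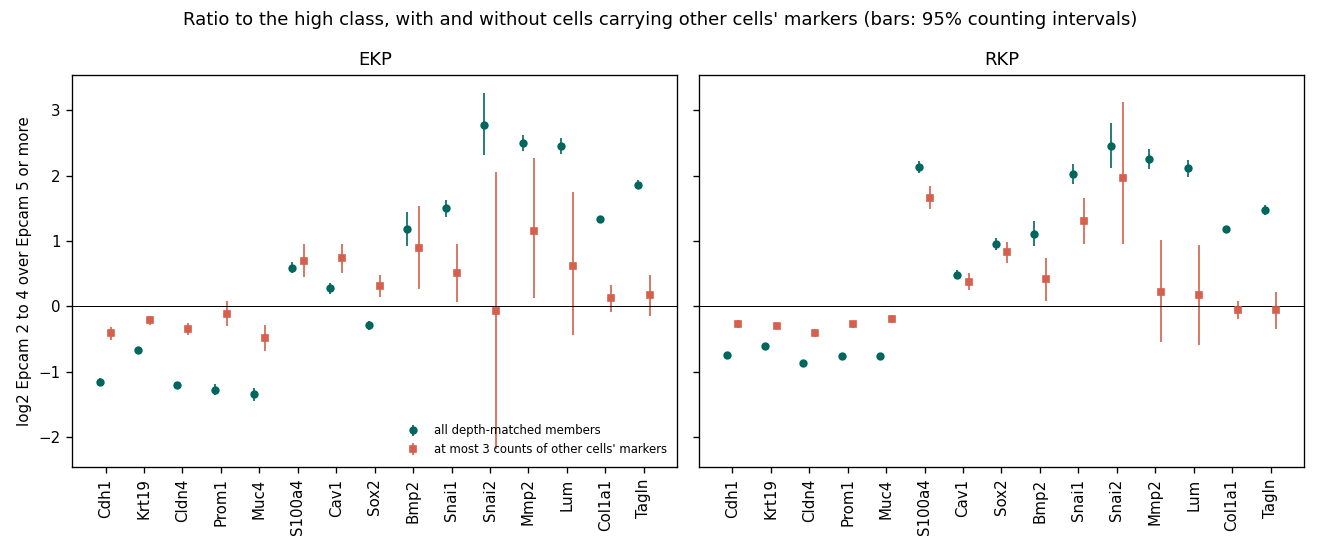
Log2 ratio of the intermediate to the high class for 15 genes, over all depth-matched cells (circles) and over cells with at most 3 counts of other cells' markers (squares), with 95% counting intervals. Epithelial genes move up towards 0, Tagln lies near 0 in the restricted cells (Lum and Col1a1 are held low there by the limit itself), and S100a4 stays above 0 in both sections.

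The placement above both classes also rested on how depth and Epcam entered the rule. In cells with fewer than 160 counts Lum was at 0.822 times the low class in EKP and 0.602 times in RKP, where it was at 1.66 and 1.51 times in cells with at least 160 and fewer than 320. Only 7 genes in EKP and 22 in RKP were above both classes in the shallowest window, compared with 47 in each section over all matched cells. With the Krt8-positive cells split into 3 equal groups by the share of Epcam in the total, Lum in the middle group was at 0.286 and 0.287 times the lowest group, and S100a4 at 0.246 and 0.0788 times it. S100a4 was at 1.29 and 1.07 times the top group, so its distance from the high class in RKP, 4.38 times under the rule, was nearly lost. Cdh1 in the middle group was at 0.865 and 0.901 times the top group and 3.496 and 2.56 times the lowest. Cdh1 therefore had values between those of the outer classes under either definition in both sections, S100a4 in RKP came close to the top group, and Lum changed from above the low class to below it.

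Barcodes of intermediate epithelial content were more frequent among the intermediate cells than in a mixture of the outer classes. Each matched cell was thinned to 80 counts and the counts of the listed epithelial genes were added up. The mean was 3.27 in the low, 7.64 in the intermediate and 11.9 in the high class of EKP, and 2.53, 12.9 and 17.0 in RKP. No such count was found in 2.68% (2.11 to 3.34%) of the intermediate cells of EKP, where a mixture of low and high cells with the same mean would give 7.15%, and 15 or more were found in 9.13% (8.09 to 10.3%) against 13.6%. In RKP the values were 1.97% (1.57 to 2.44%) against 6.52%, and 44.7% (43.2 to 46.2%) against 49.7%. Both of these shares were thus smaller than in that mixture in each section. In RKP the limit of 15 lies below the high-class mean of 17.0, so that share is not an upper tail. A sum of 5 or more was found there in 81.6% against 75.03% in the mixture, and 10 or more in 64.4% against 66.9%. Sums of at least 5 and under 10 were thus more frequent than in the mixture. The RKP sums still had a smaller mode at low counts, with 4.44% of cells at 3, 3.13% at 6 and 4.88% at 15. Molecules of neighbouring cells can also give a barcode an intermediate sum, and their part was not tested. For Cdh1 alone, 44.7% of the intermediate cells of EKP and 39.0% of those of RKP had no count, against 52.6% and 44.7% in the mixture. For each mesenchymal gene the mixture was set to that gene's own mean. The weight of the high class in EKP was thus 0.914 for S100a4, 0.489 for Snai1 and 0.164 for Snai2. Snai1 and Snai2 had means of 0.265 and 0.0450 counts per intermediate cell in EKP, and 0.190 and 0.0498 in RKP. At such means the share with a count nearly follows from the mean, so it cannot tell a mixture from intermediate cells. S100a4 was counted in 26.0% (24.4 to 27.6%) of the intermediate cells of EKP against 25.4% in the mixture, and Snai1 in 20.2% (18.8 to 21.8%) against 19.2%. In RKP, Snai1 was counted in 14.01% (13.0 to 15.1%) against 13.8%, and S100a4 in 24.0% (22.7 to 25.3%) against 20.3%. Snai2 was counted in 3.92% against 4.19% in EKP and 4.30% against 4.39% in RKP.

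**Figure D4:**
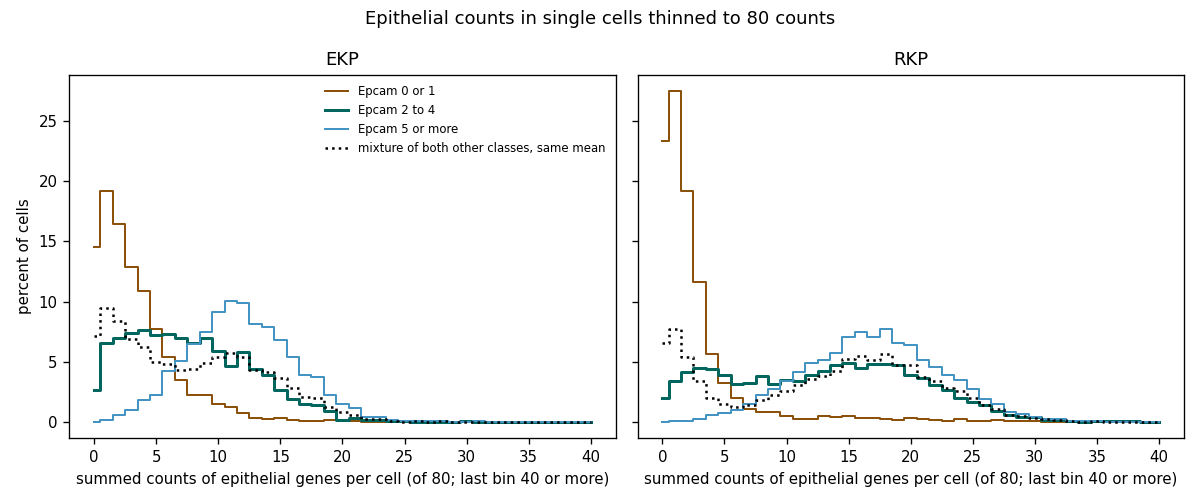
Percent of cells by their summed epithelial count after thinning to 80 counts, for the low, intermediate and high classes and for a mixture of the low and high classes with the mean of the intermediate cells (dotted). The intermediate cells of EKP form 1 broad distribution without the dip of the mixture, and those of RKP have a small mode at low counts and a broad one near that of the high class, with a shallower dip than the mixture.

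Cells with both Cdh1 and S100a4 made up close to the product of the separate shares in EKP and a smaller share than the product in RKP. In the thinned intermediate cells of EKP, 55.3% had a Cdh1 count, 26.0% an S100a4 count and 14.2% (12.9 to 15.5%) both, where the product of the separate shares is 14.4%. In RKP the shares were 61.0% and 24.0%, and 10.1% (9.20 to 11.1%) had both against a product of 14.6%. S100a4 was counted in 25.7% of Cdh1-positive and 26.4% of Cdh1-negative intermediate cells of EKP, and in 16.6% and 35.5% of those of RKP. Lum was counted in 17.4% of Cdh1-positive and 33.0% of Cdh1-negative intermediate cells in EKP and in 10.1% and 23.4% in RKP. Molecules from neighbouring cells can enter such shares. At the same 80 counts, S100a4 was counted in 20.7% of high-class cells in EKP and 11.6% in RKP, Cdh1 in 13.7% and 10.2% of low-class cells, and Lum in 6.81% and 5.29% of high-class cells. The S100a4 share of the intermediate cells of EKP was thus little above that of the high class.

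Proliferation genes stood below the low class in both sections. Mki67 stood at 4961, 2200.2 and 2693 in the low, intermediate and high classes of EKP and at 7305, 3632 and 3585 in RKP, and Top2a, a topoisomerase of dividing cells, at 6149, 2423 and 2883 and at 7514, 4110.2 and 3712. All 5 proliferation genes measured were below both classes in EKP, against 6.49% of all kept genes, and 1 of 5 (Stmn1) was in RKP, against 2.40%. In cells with at most 3 counts of other cells' markers, Mki67 was at 1.27 (0.985 to 1.63) times the high class in EKP and 1.38 (1.25 to 1.53) times in RKP, and so was below both classes in neither. Cd44, an adhesion receptor for hyaluronan, was below both classes in both sections, at 15550.1, 12512 and 17444 in EKP and 21564, 18355 and 24723 in RKP, and remained so in those cells, at 0.897 (0.824 to 0.977) and 0.838 (0.803 to 0.875) times the high class. Vegfa, the vascular growth factor induced by hypoxia, was placed between in both sections, at 13233, 18944 and 29786 and 9211, 13008 and 18825, and Cdkn1a, an inhibitor of the cell cycle, was above both, at 6355, 10944 and 10185 and 2572, 3899 and 3130.4.

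Counted by size alone, 103 of 462 genes (22.3%) were at least 2-fold higher in the intermediate than in the high class of EKP and 28 (6.06%) at least 2-fold lower. Against the low class, 54 (11.7%) were higher and 50 (10.8%) lower. In RKP, of 417 genes, 106 (25.4%) were higher and 3 (0.719%) lower than in the high class, and 96 (23.0%) were higher and 96 (23.0%) lower than in the low class. The 8 largest ratios to the high class in EKP, among genes of 500 or more per 1000000 in the higher of the 2 classes compared, were of Snai2, Tbx3, Mmp2, Lum, Mgll, Sod3, Twist1 and Cd80, from 6.86 to 4.97. Tbx3, a T-box transcription factor, stood at 1509, 2806 and 428 in the low, intermediate and high classes, and Mgll, a lipase, at 1641, 1618 and 312. In RKP the 8 were Hey1, Ptn, Mamdc2, Snai2, Mmp2, Mfap4, S100a4 and Lum, from 12.5 to 4.32. Lum, Mmp2 and Snai2 were in both sets of 8.

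The smallest ratios to the high class in EKP were of Muc4, Scg2, Ctse, Prom1, Gpa33, Cldn4, Prom2 and Cldn3, from 0.392 to 0.443. In RKP they were of Acan, Cldn4, Prom1, Ctse, Muc4, Cdh1, Prom2 and Cldn3, from 0.543 to 0.616. Ctse, an aspartic protease of the gastric mucosa, stood at 380.5, 3764 and 9286 in the low, intermediate and high classes of EKP and at 952, 7754 and 13175 in RKP. Acan, the large proteoglycan of cartilage, stood at 1812, 5408 and 9959 in RKP. The largest ratios to the low class in EKP were of Prom1, Gabrp, Ctse, Cldn7, Muc4, Fxyd3, Cldn4 and Ivl, down to 7.37, and in RKP of 5330417C22Rik, Muc4, Ambp, Cldn2, Prom1, Gabrp, Cldn4 and Muc20, down to 11.98. The smallest in EKP were of Lrp2, Ccn3, S100a4, Bmp2, Ptprn2, Cav1, Cavin2 and Gatm, from 0.0757, and in RKP of Hey1, S100a4, Ptn, Gamt, Ppargc1a, Sox2, Bmp2 and Areg, from 0.183.

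The intermediate cells of the RKP and EKP sections held like levels of Cdh1 and unlike levels of many other genes. Of 455 genes kept in either, RKP had 66 (14.5%) at 2-fold or more above EKP and 137 (30.1%) at 2-fold or more below. Some of the latter rested on few counts, such as Abcb11 (9 in EKP and 1 in RKP) and Calm5 (6 and 1). The members of the sections were not matched in depth to each other, with medians of 151 counts in EKP and 132 in RKP. Cdh1 was close, at 11470.5 in EKP and 13117 in RKP, and so was Krt19, at 34491 and 31078. Prom1 was at 3425 and 18733, Muc4 at 2532 and 12974 and Lgr5, a receptor of WNT-dependent stem cells, at 269.6 and 1547. Cldn2 was 15.4 times higher in RKP (13.7 to 17.4), Gabrp 10.5 times and Ptn 9.96 times. Acan was at 16980.4 in EKP and 5409.6 in RKP, Ndrg1, induced by hypoxia, at 17759 and 5917, Ivl, a protein of the cornified envelope, at 1704 and 496, and Tagln at 20957 and 8564. These genes were chosen after their values were seen, and section and line cannot be told apart.

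Within each section the number of intermediate cells varied over the file. When the barcodes were cut into 10 successive parts in file order, a part held between 68 and 605 intermediate cells in EKP and between 222 and 596 in RKP. The parts also differed in Krt8-positive cells. Of those left by the 5 genes, intermediate cells made up 3.11 to 12.7% in EKP (median 9.92%) and 7.22 to 11.3% in RKP (median 9.78%). Their Cdh1 level ranged from 7510 to 14499 over the parts in EKP and from 11465 to 15553 in RKP, and S100a4 from 2566 to 16989 and from 1372 to 18847. S100a4 thus varied more over the parts than Cdh1 did in both sections. In RKP its lowest part, at 1372, lay below the matched high-class level of the whole section. Levels of the high class by part were not computed. Of the 10 barcodes listed next to an intermediate cell that had 80 or more counts, 29.2% were of the high class in EKP and 3.00% of the low class, where these made up 16.6% and 4.54% of all such barcodes, and 27.0% and 2.81% in RKP, against 15.7% and 3.84%. The sources used here do not say what the order of barcodes stands for. Across the sections, 19 barcode names occurred in both.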

How the data were processed

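Raw transcript counts per gene and cell were deposited by the authors for 2 sections; per the file headers they come from Xenium software, and Seurat 4.4.0 is named per the submitters' processing notes. Software version, segmentation and quality limits were not given in the sources used here. The sections held 31597828 (EKP) and 44294494 (RKP) gene counts, with medians of 84 and 154 per barcode. The members and all gene lists were chosen with earlier results of these data known. Classes were matched in depth bands by a seeded draw, and counts were summed per class. A gene was kept when its sum exceeded the highest negative control probe in any class. Ratios carry exact conditional binomial intervals and shares Clopper-Pearson intervals, both at 95%, for counting error only; with 1 section per group no test was run. Genes named were those of the rule, of the epithelial, junction and mesenchymal lists, up to 4 of each other list by level, and the 8 largest and smallest ratios among genes at 500 or more per 1000000; others are said to be chosen later. The ratio calculation was tested on simulated data: 93.0% of intervals held the true ratio for EKP (129 genes compared) and 97.9% for RKP (140). Those data were drawn with counting error alone, as the intervals assume, and only genes with many counts in every class were compared. The test thus checked the calculation and not the spread of real counts over cells. Python 3.11.15, numpy 2.4.6, scipy 1.17.1, pandas 2.3.3 and matplotlib 3.10.9 were used. Alternatives changed the depth, scaling, filter, background, fold, Krt8 limit, exclusion and Epcam class.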

Additional observations from a re-analysis of the deposited data

Results flagged for a closer look

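Scg2, a secretory granule protein of neuroendocrine cells, ran in opposite directions in the sections. In EKP the intermediate cells had 2.29 times the low-class level (1.68 to 3.16, on 135 counts against 60), and in RKP 0.137 times (0.0723 to 0.240, on 14 counts against 105). It was singled out because the ratio lay on opposite sides of 1, and the difference between the sections was not tested.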

How the results depend on the processing

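With 1 section per group, depth and the width of the count classes limit the values. No paired analysis was possible because each group was 1 section. Over all matched cells, 131 (EKP) and 109 (RKP) genes were 2-fold or more from the high class, 104 and 192 from the low class, 98 and 152 between the classes and 47 and 47 above both. Another draw of cells, counts per cell, totals without the most abundant genes, no filter and background subtraction kept all these counts within 1.5 times. Without depth matching, 75 genes were above both in RKP. In cells with fewer than 160 counts, 7 (EKP) and 22 (RKP) were above both, and 63 were 2-fold from the high class in RKP. In cells with 320 or more counts, 49 and 58 were between. At 1.5-fold, 239 and 193 genes differed from the high class, and 207 from the low class in EKP. Without exclusion by the 5 genes, 96 and 97 were above both, and 177 differed from the high class in RKP. With at most 3 counts of other cells' markers, 40 and 35 differed from the high class, 26 and 82 were between and 15 and 26 above both. Col1a1 and Mmp9 count towards that limit. Log2 ratios to the high class there turned to -0.068 for Snai2, -0.88 for Twist1, -0.068 for Mmp9 and -0.48 for Hey1 in EKP. In RKP they turned to -0.064 for Twist1, -0.064 for Tagln, -0.057 for Col1a1 and -0.080 for Mmp9. The intervals of all these ratios included no difference, so levels below the high class were not shown. Twist1, Snai2 and Hey1 in EKP had 4, 5 and 6 counts in the intermediate cells, and Twist1 in RKP had 10. With Epcam 3 only, 65 and 99 were between. With 3 equal groups by share of Epcam, 24 and 10 differed from the high class and 152 were between in EKP. The log2 ratio to the high class there turned to 0.10 for Prom1 and 0.020 for Muc1 in EKP, and to the low class to -1.43 for Twist1 and -0.74 for Tagln in RKP. The exclusion of cells with Lum, Dpt, Mfap5, Pi16, Mmp2 or Tagln and the 2-fold rule with an interval were chosen after seeing the data. The former left 56 and 50 genes apart from the high class, 12 and 19 above both, and 49 between in EKP. The latter gave 111 and 100 against the high class and 79 and 165 against the low class. The share of barcodes in the rule, 2.12% and 2.09%, was 1.56% and 1.11% at 160 or more counts, 2.57% and 2.17% at 40 or more, 1.39% and 1.31% at Krt8 5 or more, 6.08% and 7.12% without the exclusion and 8.84% and 8.65% after thinning. Intermediate cells without Cdh1, 44.7% and 39.0%, were 27.0% and 24.3% unthinned and 58.2% and 55.9% among cells with 160 or more counts. The cause of these moves was not tested.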
